A study of Mus musculus with 6 samples.

Results

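Heparan sulfate genes were compared between lenses of Prox1 conditional knockout mouse embryos and lenses of wild type embryos at stage E13.5. The set holds the genes that make heparan sulfate, the syndecan, glypican and agrin proteins that carry it, and the enzymes that trim or cut it. Its 42 members were picked by a rule on gene names from 41128 listed features, a rule written with earlier results of these data known, and 38 of them had enough reads to be tested. The knockout lenses (Prox1 f/f MLR10Cre+) carry floxed alleles of the transcription factor gene Prox1 and a Cre transgene active in lens cells, and the labels give C57Bl/6 as the strain of both groups, with the wild type further described as C57Bl/6 <har>. Each group had 3 libraries, and each library pooled 30 lenses. No library had the transgene alone or the floxed alleles alone, so loss of Prox1, the transgene and the floxed background cannot be told apart. RNA was selected by its poly(A) tail and read without strand, and values are CPM, counts scaled to library size with TMM factors, unless RPKM, which also divides by gene length, is named.

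Heparan sulfate is a long sugar chain built in the Golgi on a serine of a core protein. A short linker is laid down first, the chain is then extended, and sulfotransferases place sulfate groups along it in patterns that decide which growth factors bind. In the lens it is known as a partner of FGF receptors, whose signalling drives fibre cell differentiation. Heparanase is the enzyme that cuts the finished chain outside the cell and in lysosomes.

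The largest change among the members belonged to Hpse, the gene for heparanase, which was low in wild type lenses and 27.2-fold higher in knockout lenses. Of the 38 members tested, 13 (34.2%) rose and 2 (5.26%) fell past an adjusted p of 0.05 by edgeR's quasi-likelihood test, and 23 were not called. Over all 14271 genes tested, 15.9% rose and 16.8% fell by the same rule. With unscaled library totals in place of TMM scaling, 26 members rose and 1 fell, and 5423 of all genes rose and 945 fell. At least 2-fold, 7 members rose (Hpse, Ndst4, Hs3st5, Hs3st6, Hs3st4, Gpc4 and Gpc2) and 0 fell, where 5.86% and 5.11% of all genes did. With an unadjusted p under 0.05, 15 of the 38 members rose and 2 fell, where 3279 of the 14271 genes rose and 3185 fell. All wild type libraries passed the filter on low counts for 36 of the 38, Ndst4 and Extl1 being the exceptions. The members that rose were 5 O-sulfation genes, 4 glypicans, Agrn, Hpse, the precursor gene Ugdh and the N-sulfation gene Ndst4, while no gene of the linker and no gene of the chain polymerase Ext1 and Ext2 was called. The median log2 fold change was 0.30 over the members tested and 0.04 over all genes tested. All knockout libraries lay above all wild type libraries for 13 members and below them for 3, where 24.4% and 25.7% of all genes did so. In pools of whole lenses, a change in the share of a cell type and a change of RNA per cell cannot be told apart.

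The promoters of 4 members are shown as examples of 4 roles: Hpse for chain cleavage, Hs3st5 for sulfation and Gpc4 for glypicans, which rose, and Sdc1 for syndecans, which fell. Each is the 250 bases before the RefSeq start site on build GRCm38.p6, 5′ to 3′ on the gene's own strand, with the GC box motif GGGCGG, searched on both strands, in capitals. The windows are chr5:100719717-100719966 on the minus strand for Hpse, chr10:36506557-36506806 on the plus strand for Hs3st5, chrX:52164924-52165173 on the minus strand for Gpc4 and chr12:8771146-8771395 on the plus strand for Sdc1. GENCODE places some starts elsewhere. The Gpc4 window lies within its GENCODE gene span (52053021 to 52165252), and the Sdc1 window runs past the GENCODE start at 8771323.
Hpse: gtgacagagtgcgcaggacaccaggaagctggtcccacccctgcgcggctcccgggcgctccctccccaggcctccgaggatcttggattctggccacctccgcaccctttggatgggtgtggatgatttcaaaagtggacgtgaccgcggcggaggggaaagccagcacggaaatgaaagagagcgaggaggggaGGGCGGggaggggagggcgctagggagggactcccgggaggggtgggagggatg
Hs3st5: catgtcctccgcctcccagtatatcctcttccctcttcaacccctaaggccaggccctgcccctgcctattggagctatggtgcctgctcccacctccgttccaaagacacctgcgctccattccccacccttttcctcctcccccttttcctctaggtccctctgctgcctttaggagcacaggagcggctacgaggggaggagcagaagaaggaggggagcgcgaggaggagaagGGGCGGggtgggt
Gpc4: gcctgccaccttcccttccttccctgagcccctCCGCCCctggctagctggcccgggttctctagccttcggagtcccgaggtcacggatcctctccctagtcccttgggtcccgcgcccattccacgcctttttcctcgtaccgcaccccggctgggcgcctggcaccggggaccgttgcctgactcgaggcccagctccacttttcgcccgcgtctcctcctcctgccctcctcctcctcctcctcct
Sdc1: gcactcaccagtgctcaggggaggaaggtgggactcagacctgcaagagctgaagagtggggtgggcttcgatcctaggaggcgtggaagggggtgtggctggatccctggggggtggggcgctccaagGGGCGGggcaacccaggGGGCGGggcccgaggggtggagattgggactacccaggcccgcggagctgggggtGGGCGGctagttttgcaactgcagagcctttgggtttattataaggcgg
The Sdc1 window held 3 copies of the motif, and the windows of Hpse, Hs3st5 and Gpc4 held 1 each. G and C made up 66.8% of the bases for Hpse, 62% for Hs3st5, 68.4% for Gpc4 and 66% for Sdc1, against a median of 52.4% over the 32851 windows of that length in the table. The motif was in 32.7% of all windows and in 24 of the 37 windows of the 32 members that the table lists. It was in 10 of 10 windows of members that rose, which cover 9 of the 13 risers, and in 2 of 3 of members that fell. Among the other members it was in 9 of 20 windows of those not called and 3 of 4 of those not tested. The median share of G and C was 66.6% in the windows of members that rose and 62.8% in those of members not called. The median count of the letters CG in a row was 6 over all windows. It was 20 in windows of members that rose and 16 in those of members not called. The windows of the whole table were not limited to genes tested here. A match to these letters is a description of the sequence and not a binding site.

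Knockout libraries held 9082219 to 28391662 counts and wild type libraries 20731491 to 21061582 counts, and the 42 members together took between 0.145% and 0.267% of a library. Prox1 itself had 651, 728 and 707 CPM in cKO lenses and 922, 1215 and 1246 CPM in wild type lenses, a decrease of 1.62-fold by edgeR (adjusted p 0.0074, or 0.0532 with unscaled totals). That count is not split by exon, and the deleted part of the gene is not given in the labels. Crystallins and other lens fibre markers marked both groups as lens, and 10 of 10 fibre markers fell, with sums of 18289 to 20587 CPM in cKO lenses and 85158 to 156611 CPM in wild type lenses. Dnase2b and Birc7 among them passed the filter on low counts through their wild type libraries alone. In cKO lenses Dnase2b had 0, 5 and 4 counts and Birc7 had 4, 2 and 3 counts. Wild type library 1 had the lowest fibre sum of its group. Of 7 lens epithelium markers 4 rose and 1 fell, with sums of 2216 to 2424 CPM in cKO lenses and 1405 to 1594 CPM in wild type lenses. All 6 surface ectoderm markers rose, with sums of 70.5, 39.1 and 133 CPM in cKO lenses and 28.7, 9.45 and 20.1 CPM in wild type lenses. Krt14 among them passed the filter through its knockout libraries alone, with 2, 5 and 3 counts in wild type lenses. The part of these marker differences in the values of the members was not tested. Knockout library 3 stood apart in markers of tissue around the lens, with 2765 CPM over 8 mesenchyme markers against 920 and 578 CPM in the other knockout libraries and 178 to 453 CPM in wild type lenses. Pigment cell markers had 740 CPM there, 367 and 268 CPM in the other knockout libraries and 82.2 to 193 CPM in wild type lenses.

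**Figure D1:**
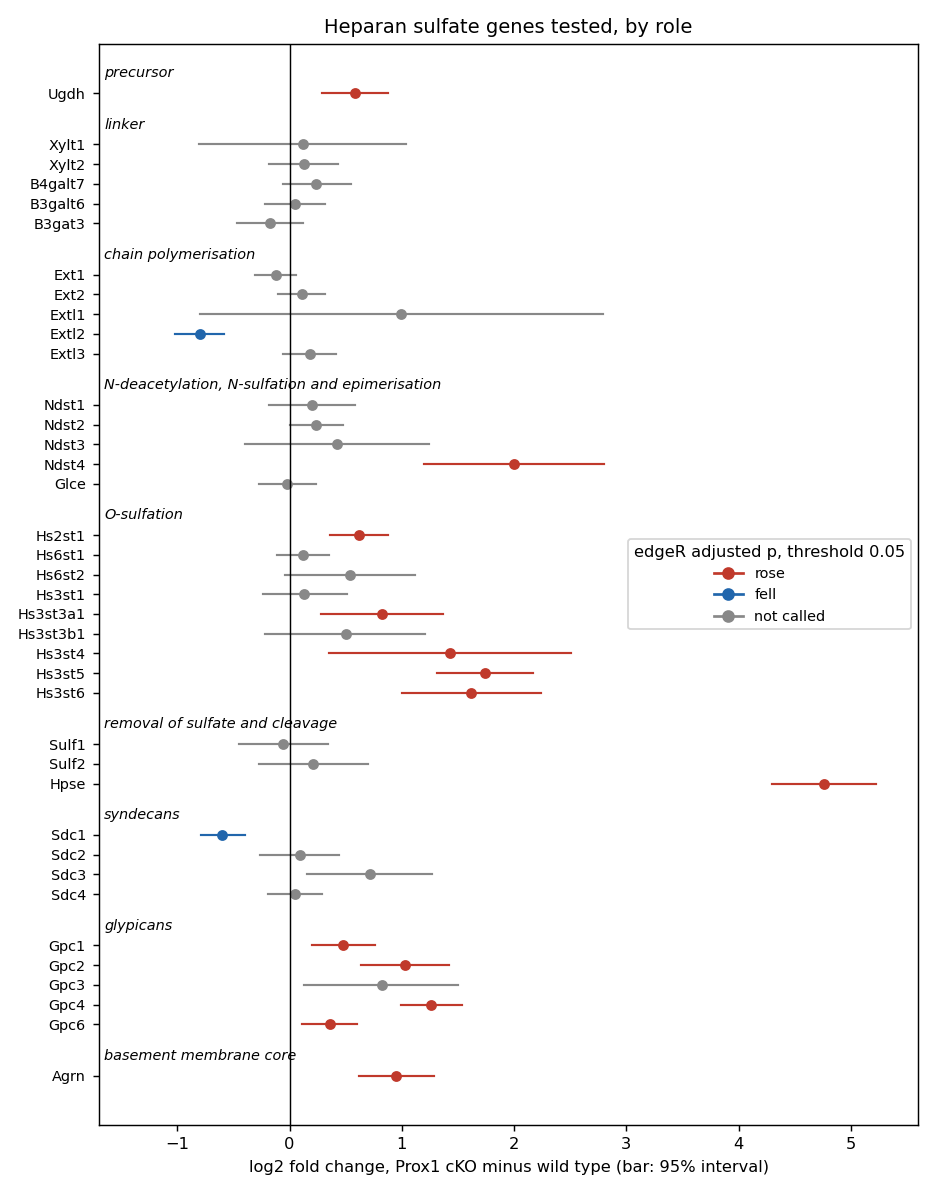
Log2 fold change (x axis, Prox1 cKO minus wild type) of the 38 members tested, grouped by role down the page, with points for the estimate, bars for the 95% interval and colour for the edgeR call. Hpse lies at 4.76, far from all other members, the linker genes lie around 0, and Extl2 and Sdc1 are the 2 members in the fallen class.

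The heparanase transcript was low but counted in every wild type library. Hpse (ENSMUSG00000035273, GRCm38 chromosome 5, 100679484 to 100719716, minus strand) was read 1282, 484 and 296 times across the knockout libraries in order and 22, 23 and 28 times across the wild type ones. In CPM these were 37.7, 40.4 and 29.9 in cKO lenses and 1.06, 1.32 and 1.61 in wild type lenses. The lowest knockout library was far above the highest wild type library. The log2 fold change was 4.76 (SE 0.202, edgeR adjusted p 1.4e-05), with means of 36.0 ± 5.48 CPM in cKO lenses and 1.33 ± 0.275 CPM in wild type lenses (SD, n = 3 each). Without any 1 library it lay between 4.57 and 4.90, and edgeR adjusted p ran from 2.52e-05 to 0.00041. Per length, Hpse ranked 19 of the 42 members in cKO lenses (11.6 RPKM) and 35 in wild type lenses (0.332 RPKM), so that its transcript stood at 11.6 RPKM beside 11.0 for Ext2 and 13.2 for Extl2 in knockout lenses. None of its exon bases is shared with another annotated gene.

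Heparanase is abundant in platelets, macrophages and mast cells, so markers of these blood cells were read beside it. Platelet markers summed to 25.6 to 28.0 CPM in cKO lenses and 12.8 to 25.3 CPM in wild type lenses, and 0 of 6 were called. Macrophage markers summed to 53.9 to 76.6 CPM in cKO lenses and 31.1 to 68.8 CPM in wild type lenses, and 0 of 6 tested were called. The macrophage sums overlapped between the groups and the platelet sums did not. Of 6 mast cell markers, 3 could be tested and all 3 rose, with sums of 32.8, 28.7 and 33.9 CPM in cKO lenses and 18.5, 14.8 and 10.7 CPM in wild type lenses. Most of that sum was Kit, a receptor also made by other cells. The protease gene Cpa3 of mast cells had 8.08, 2.84 and 5.04 CPM in cKO lenses and 1.74, 1.72 and 1.15 CPM in wild type lenses. The protease gene Cma1 had 2.94, 1.25 and 1.51 CPM in cKO lenses and 0.29, 0.344 and 0.115 CPM in wild type lenses. Of the markers not tested, Tpsb2 had 64, 2 and 5 counts in cKO lenses and 1, 0 and 0 counts in wild type lenses. Mcpt4 had 10, 2 and 4 counts in cKO lenses and 0, 3 and 1 counts in wild type lenses, and the IgE receptor gene Fcer1a had no count. Cma1 passed the filter on low counts through its knockout libraries alone, with 6, 6 and 2 counts in wild type lenses. The part of any of these cells, or of surface ectoderm, in the rise of Hpse was not tested.

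The other enzymes that act on the finished chain did not pass the threshold. Sulf1 and Sulf2 encode secreted sulfatases that remove 6-O-sulfate groups. Sulf2 had 260, 171 and 279 CPM in cKO lenses and 258, 165 and 189 CPM in wild type lenses (log2 0.21, 95% interval -0.27 to 0.70, edgeR adjusted p 0.463), and per length it was the most abundant member in both groups, at 46.0 RPKM in cKO lenses and 31.5 RPKM in wild type lenses on the deposited scale. Sulf1 had 107, 122 and 172 CPM in cKO lenses and 122, 147 and 148 CPM in wild type lenses (log2 -0.06, 95% interval -0.45 to 0.34, edgeR adjusted p 0.823), and its sign turned without knockout library 1 or 2 and with unscaled totals. For both genes the groups overlapped, and the intervals allow changes of up to 0.70 and 0.45 in size on the log2 scale. Hpse2, whose protein is related to heparanase but does not cut the chain, had 0, 0 and 6 counts in cKO lenses and none in wild type lenses and was not tested.

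Synthesis begins with sugar precursors and the linker. Ugdh, which makes the glucuronic acid donor, had 39.0, 34.2 and 45.8 CPM in cKO lenses and 28.8, 25.1 and 25.3 CPM in wild type lenses. All knockout libraries lay above all wild type libraries, and Ugdh rose 1.5-fold (log2 0.58, SE 0.129, edgeR adjusted p 0.0109), but missed the threshold without library 2 (0.0605) or 3 (0.0554) of the wild type. None of the 5 linker genes was called. Xylt1 and Xylt2 add the first xylose, B4galt7 and B3galt6 add the galactoses and B3gat3 adds the closing glucuronic acid. Their log2 fold changes lay between -0.17 for B3gat3 and 0.24 for B4galt7, and edgeR adjusted p ran from 0.188 to 0.839. The 95% intervals of the other four genes reached at most 0.55, for B4galt7, and that of Xylt1 ran from -0.81 to 1.04. Xylt1 was uneven among the knockout libraries, with 3.50, 8.52 and 13.3 CPM, against 8.26, 7.33 and 6.97 CPM in wild type lenses.

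Among the Ext and Extl genes, grouped here under chain extension, only Extl2 was called. Extl2, whose enzyme caps a phosphorylated linker and so stops chain growth, had 38, 41.7 and 41.1 CPM in cKO lenses and 67.0, 76.4 and 67.1 CPM in wild type lenses. The groups were tight and far apart, and Extl2 fell by 0.80 in log2 units with an SE of 0.0963 (edgeR adjusted p 0.000679), which is 1.75-fold. Ext1 and Ext2, the subunits of the polymerase, were not called. Ext1 had 109, 115 and 116 CPM in cKO lenses and 126, 126 and 120 CPM in wild type lenses (log2 -0.12, 95% interval -0.31 to 0.06, edgeR adjusted p 0.266). Its knockout libraries were all below the wild type libraries, but by a margin within the test's error, and its sign turned with unscaled totals. Ext2 (log2 0.11, edgeR adjusted p 0.372) and Extl3, which adds the first glucosamine of the chain (log2 0.18, edgeR adjusted p 0.211), were also not called. Extl1 was near the floor, with 12, 9 and 9 counts in cKO lenses and 11, 0 and 6 counts in wild type lenses. Of the summed RPKM of these 5 genes, Extl2 took 22.7 ± 0.577% in cKO lenses and 34.7 ± 2.23% in wild type lenses (SD, n = 3 each), a difference of -11.96 percentage points. The 2-sided exact permutation test gave p = 0.10, the smallest that 3 libraries against 3 can give.

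N-sulfation is the gateway to all later modifications. The enzymes of the abundant genes Ndst1 and Ndst2 remove acetyl groups and add sulfate, and Glce turns glucuronic into iduronic acid. Ndst1 (GRCm38 chromosome 18) had 71.1, 108 and 111 CPM in cKO lenses and 90.9, 84.5 and 75.5 CPM in wild type lenses. The wild type values fell within the range of the knockout, and Ndst1 was not called (log2 0.20, 95% interval -0.18 to 0.58, edgeR adjusted p 0.379), except without knockout library 1 (0.0295) or with unscaled totals (0.0279). Ndst2 had 27.0, 25.7 and 28.5 CPM in cKO lenses and 23.4, 21.5 and 24.0 CPM in wild type lenses (log2 0.24, edgeR adjusted p 0.112), with no overlap between the groups. Glce had a log2 fold change of -0.02 (95% interval -0.27 to 0.24, edgeR adjusted p 0.92), a sign that turned with upper quartile scaling, with unscaled totals and without knockout library 2. Ndst4 rose 4-fold (log2 2.00, SE 0.35, edgeR adjusted p 0.00391), yet from a trace: it had 36, 15 and 15 counts in cKO lenses and 7, 5 and 5 counts in wild type lenses. It passed the filter on low counts through its knockout libraries alone, and it made up 0.668 ± 0.0447% of the summed Ndst RPKM in cKO lenses and 0.186 ± 0.00883% in wild type lenses. Ndst3, also rare, was not called (log2 0.42, edgeR adjusted p 0.388).

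O-sulfation held the largest number of risers, with 5 of 9 tested genes rising (55.6%) and 0 falling. Of all genes tested, 15.9% rose and 16.8% fell, and the share of risers was higher for glypicans (80%). Hs2st1, the only gene for a 2-O-sulfotransferase of heparan sulfate, had 83.2, 94.4 and 85 CPM in cKO lenses and 65.3, 51.7 and 53.8 CPM in wild type lenses. The groups did not overlap, and the rise was 1.54-fold (log2 0.62, SE 0.113, edgeR adjusted p 0.0047). The 6-O-sulfotransferase genes were not called. Hs6st1 had a log2 fold change of 0.12 (95% interval -0.11 to 0.35, edgeR adjusted p 0.387). Hs6st2 had 16.9, 16.4 and 31.2 CPM in cKO lenses and 16.6, 14.8 and 12.4 CPM in wild type lenses (log2 0.54, edgeR adjusted p 0.13), so its difference rested on knockout library 3 and was 0.19 without it. Hs6st3 had 1 to 3 counts in every library and was not tested.

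The 3-O-sulfotransferase genes add the rarest sulfate group, which makes the binding site for antithrombin and other selective partners. Hs3st5 (GRCm38 chromosome 10, 36506814 to 36834397) had 9.26, 9.18 and 10.2 CPM in cKO lenses and 2.37, 2.98 and 3.22 CPM in wild type lenses. Its groups were well separated, and the rise was 3.34-fold (log2 1.74, SE 0.187, edgeR adjusted p 0.000416). Hs3st6 had 7.03, 7.85 and 4.84 CPM in cKO lenses and 2.80, 1.89 and 1.73 CPM in wild type lenses, and rose 3.07-fold (log2 1.62, SE 0.273, edgeR adjusted p 0.00335). These 2 calls held whichever library was left out. Hs3st4 had 4.67, 2.34 and 5.85 CPM in cKO lenses and 0.724, 2.58 and 1.5 CPM in wild type lenses. Its groups overlapped, and its call (log2 1.43, SE 0.473, edgeR adjusted p 0.0475) was lost without knockout library 1 (0.103) or 3 (0.111), without wild type library 1 (0.0968) or 3 (0.139) and with RLE factors (0.0503). Hs3st3a1 had 3.56, 3.67 and 4.34 CPM in cKO lenses and 2.17, 1.72 and 2.59 CPM in wild type lenses. It rose by 0.82 on the log2 scale (edgeR adjusted p 0.0303), a call lost in 5 of the 6 fits that leave out a library (0.0544 to 0.137) and kept without knockout library 1 (0.048). Its exons share 32.9% of their bases with other genes, mainly F930015N05Rik on the opposite strand, and its close copy Hs3st3b1 (log2 0.50, edgeR adjusted p 0.248) may share reads with it.

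Hs3st1, the most abundant 3-O-sulfotransferase gene per length in the wild type lens, was not called, and its share of the family was lower in cKO lenses. It had 34.8, 27.1 and 27.1 CPM in cKO lenses and 21.7, 28.9 and 31.1 CPM in wild type lenses (log2 0.13, 95% interval -0.24 to 0.51, edgeR adjusted p 0.553), with overlap between the groups and a sign that turned without knockout library 1 or wild type library 1. Its share of the summed RPKM of the 7 genes was 53.0 ± 3.96% in cKO lenses and 71.7 ± 5.80% in wild type lenses (SD, n = 3 each). The share of Hs3st6 was 21.6 ± 5.25% in cKO lenses and 10.7 ± 4.15% in wild type lenses, and that of Hs3st5 was 8.82 ± 0.931% in cKO lenses and 3.87 ± 0.204% in wild type lenses. None of these 3 shares overlapped between the groups, and each had an exact permutation p of 0.10, the smallest possible. On the TMM scale the summed RPKM was 25.0 ± 1.79 in cKO lenses and 16.9 ± 1.78 in wild type lenses. Hs3st2 had 0 to 2 counts in every library and was not tested.

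**Figure D2:**
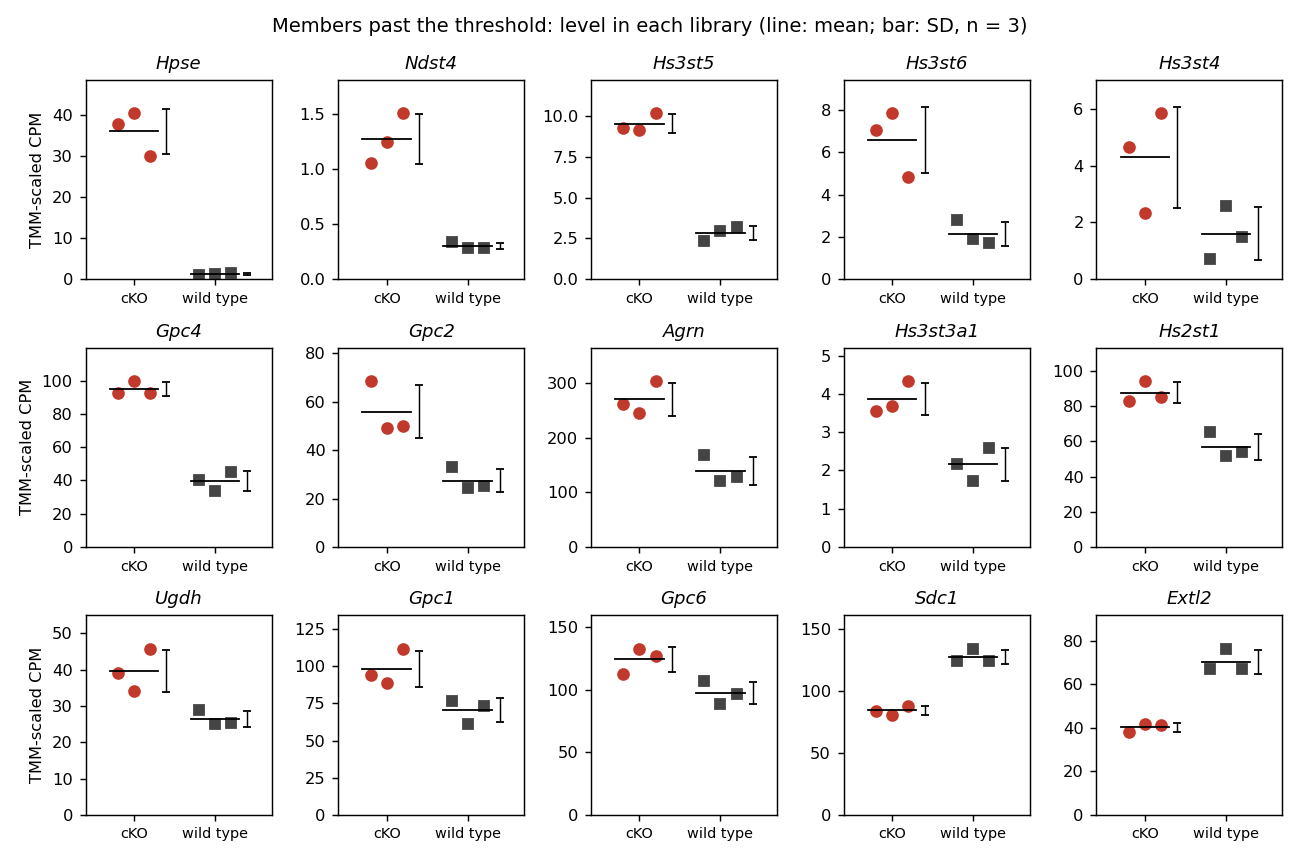
Level in each library (y axis, TMM-scaled CPM, from 0) of the 15 members past the threshold, with knockout libraries as circles, wild type libraries as squares, lines for the mean and bars for the SD (n = 3 each). Only Hs3st4 shows overlap between the groups, and Sdc1 and Extl2 are the members whose knockout libraries lie below.

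Among core proteins, 4 glypicans and agrin rose and 1 syndecan fell. Glypicans are held to the membrane by a lipid anchor, and 4 of the 5 tested rose (80%), beside 15.9% of all genes tested. Gpc4 (GRCm38 chromosome X, 52053021 to 52165252, minus strand) had 92.6, 99.9 and 92.8 CPM in cKO lenses and 40.3, 33.4 and 45.1 CPM in wild type lenses. The knockout libraries were close to each other and all above the wild type, and Gpc4 rose 2.40-fold (log2 1.26, SE 0.119, edgeR adjusted p 0.000233). Gpc2, a glypican best known from developing neurons, had 68.6, 49.3 and 49.8 CPM in cKO lenses and 33.0, 24.2 and 25.0 CPM in wild type lenses (2.05-fold, log2 1.03, SE 0.171, edgeR adjusted p 0.00307). Retinal markers were higher beside it, with sums over 8 genes of 1889, 1807 and 1313 CPM in cKO lenses and 833, 550 and 577 CPM in wild type lenses, 3 of them rising, and their part in Gpc2 was not tested. The sum was led by the Wnt regulator gene Sfrp2, with 1357, 1450 and 974 CPM in cKO lenses and 497, 337 and 347 CPM in wild type lenses. Neuron markers had 168, 133 and 144 CPM in cKO lenses and 170, 183 and 120 CPM in wild type lenses, with 0 of 8 rising and 1 falling. Exons of other genes, mainly of Gm43720 on the same strand, cover 55.6% of the exon bases of Gpc2, so its reads could be divided between genes.

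Smaller increases were found for Gpc1 and Gpc6. Gpc1 had 94.3, 88.7 and 112 CPM in cKO lenses and 76.7, 61.3 and 73.4 CPM in wild type lenses, with no overlap (1.39-fold, edgeR adjusted p 0.0202), but missed the threshold without library 2 (0.103) or 3 (0.0626) of the wild type. Exons on the opposite strand, mainly of Ankmy1, share 18.9% of its exon bases. Gpc6 had 113, 133 and 127 CPM in cKO lenses and 107, 88.7 and 96.7 CPM in wild type lenses, also without overlap (1.28-fold, edgeR adjusted p 0.0334), and its call was lost in 4 of the 6 fits without 1 library (0.0693 to 0.166). Gpc3, a glypican that restrains growth and binds hedgehog proteins, had 47.0, 32.0 and 74.9 CPM in cKO lenses and 36.6, 21.4 and 28.9 CPM in wild type lenses. Its groups overlapped and it was not called (log2 0.82, edgeR adjusted p 0.0655). It passed by DESeq2 (0.0123), without a filter (0.0179), with unscaled totals (0.0111) and without knockout library 2 (0.0244), and its log2 fold change was 0.46 without knockout library 3. Gpc5 had 0 to 4 counts in every library.

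Per length, Gpc4 became the leading glypican by a wider margin. Its share of the summed glypican RPKM was 38.4, 43.4 and 33.6% in cKO lenses and 25.7, 28.2 and 30.8% in wild type lenses, where Gpc1 held 25.2, 26.5 and 25.8%. The shares of Gpc1 (20.2 ± 0.553% in cKO lenses and 25.8 ± 0.67% in wild type lenses) and Gpc6 (14.2 ± 1.84% in cKO lenses and 19.6 ± 1.27% in wild type lenses) were lower in cKO lenses although both transcripts rose. These shares did not overlap between the groups and had exact permutation p values of 0.10 each, the smallest possible. The summed glypican RPKM on the TMM scale was 91.0, 86.9 and 104 in cKO lenses and 59.0, 44.8 and 55.2 in wild type lenses, a ratio of 1.77.

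Syndecans cross the membrane and signal through a short inner tail. Sdc1, the syndecan typical of epithelia, had 84.0, 80.5 and 88.1 CPM in cKO lenses and 124, 134 and 124 CPM in wild type lenses. The groups were clearly apart, and Sdc1 fell by 0.60 in log2 units with an SE of 0.0858 (edgeR adjusted p 0.00161). With unscaled totals the decrease was 0.24 on the log2 scale (edgeR adjusted p 0.124), a setting that moves the median of all genes up by 0.35. Sdc3, known from neural tissue, had 25.7, 32.2 and 47.0 CPM in cKO lenses and 26.5, 20.0 and 16.7 CPM in wild type lenses (log2 0.72, edgeR adjusted p 0.0511). It passed by DESeq2 (0.0124), without a filter (0.0159), with upper quartile factors (0.0442), with unscaled totals (0.00779), without library 1 of the knockout (0.0231) or of the wild type (0.0314), and was lower without knockout library 3 (log2 0.45). Sdc4 was not called and varied little (log2 0.05, 95% interval -0.19 to 0.29, edgeR adjusted p 0.733), and neither was Sdc2 (log2 0.09, 95% interval -0.26 to 0.44, edgeR adjusted p 0.671), and their signs turned in fits without 1 library. Sdc1 took 33.0 ± 2.73% of the summed syndecan RPKM in cKO lenses and 45.0 ± 1.25% in wild type lenses, where it was the leading syndecan. Sdc2 led in cKO lenses with 39.8 ± 3.87% against 34.1 ± 2.16% in wild type lenses. The shares of Sdc2 overlapped between the groups (exact permutation p 0.20), and those of Sdc1 did not (0.10, the smallest possible). The summed syndecan RPKM on the TMM scale was 67.4 ± 8.70 in cKO lenses and 74.3 ± 2.44 in wild type lenses, with overlap.

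Agrin, a secreted core protein of basement membranes such as the lens capsule, was among the clearest risers. Agrn (GRCm38 chromosome 4, 156165290 to 156197488, minus strand) had 261, 245 and 304 CPM in cKO lenses and 169, 120 and 128 CPM in wild type lenses. Its rise was 1.94-fold (log2 0.95, SE 0.149, edgeR adjusted p 0.00232), and it ranked 3 of the members per length in cKO lenses and 7 in wild type lenses. The other basement membrane carriers of heparan sulfate, Hspg2 for perlecan (log2 0.37, edgeR adjusted p 0.39) and Col18a1 (log2 0.53, edgeR adjusted p 0.125), were not called.

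**Figure D3:**
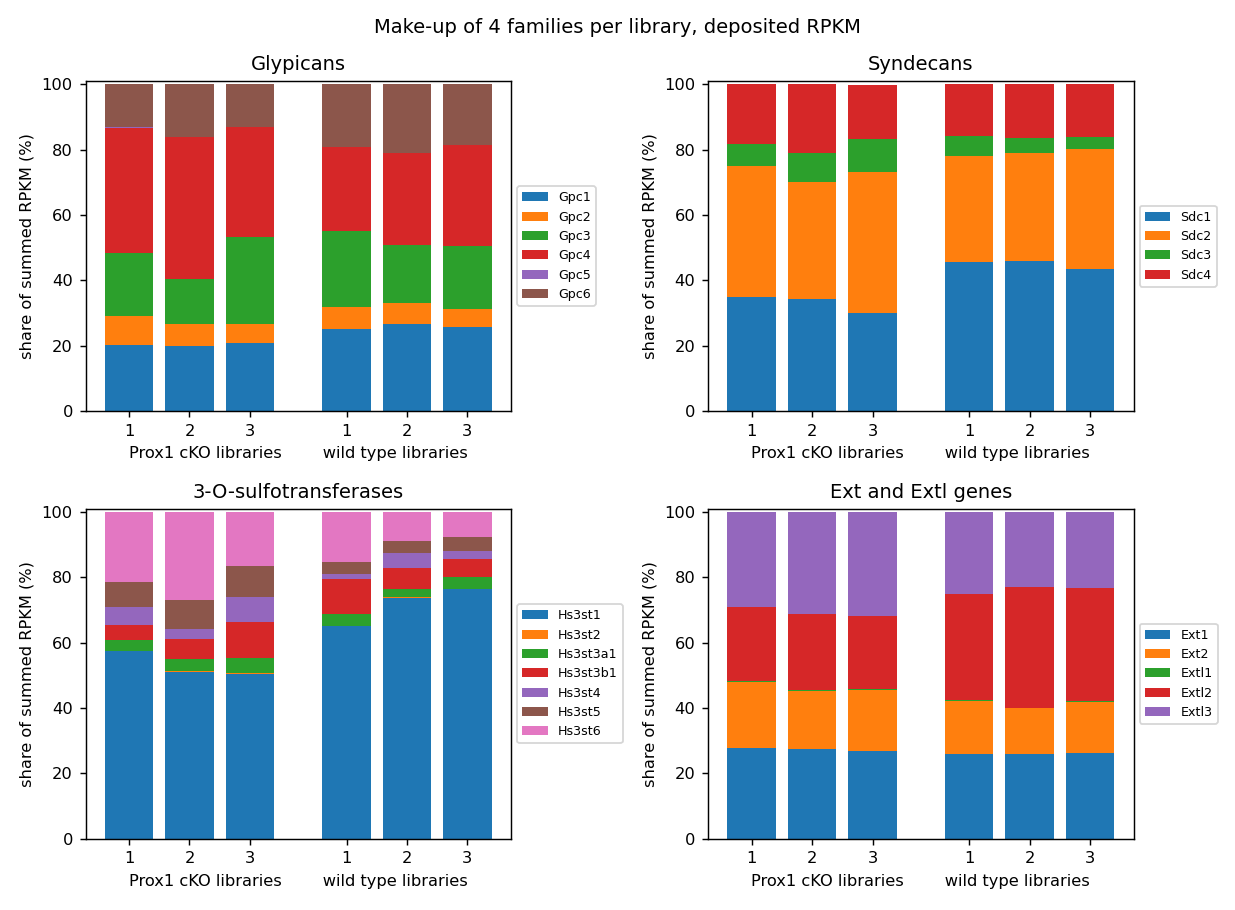
Share of each gene (y axis, percent of the summed deposited RPKM) in 4 families, with one stacked bar per library, knockout libraries on the left and wild type libraries on the right of each panel. Gpc4 and Hs3st6 take a larger part, and Sdc1, Hs3st1 and Extl2 a smaller part, of their families in every knockout library than in any wild type library.

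Knockout library 3 gave the highest value among the knockout libraries for 24 of the 38 tested members (63.2%), against 36% of all genes tested. It was at least 1.5 times above the next knockout library for Xylt1, Hs6st2, Hs3st3b1 and Gpc3. In the same library the mesenchyme markers Col1a1 and Col1a2, collagen genes of connective tissue, had 1305 and 1018 CPM, against 199 to 364 CPM in the other knockout libraries and 43.7 to 182 CPM in wild type lenses. Hs3st3b1 followed this pattern, with 6.09, 7.01 and 13.0 CPM in cKO lenses and 7.73, 5.50 and 4.89 CPM in wild type lenses, and its log2 fold change was 0.11 without knockout library 3. The part of surrounding tissue in these values was not tested. Without knockout library 3, 10 members rose and 2 fell, where 1718 of all 14465 genes tested in that fit rose and 2052 fell. The increases of Hpse (log2 4.88), Gpc2 (1.11), Hs3st5, Hs3st6, Ndst4, Gpc4, Agrn, Hs2st1, Ugdh and Gpc1 passed in it. Wild type library 1 was the highest of its group for 19 members (50%), against 38.8% of all genes.

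**Figure D4:**
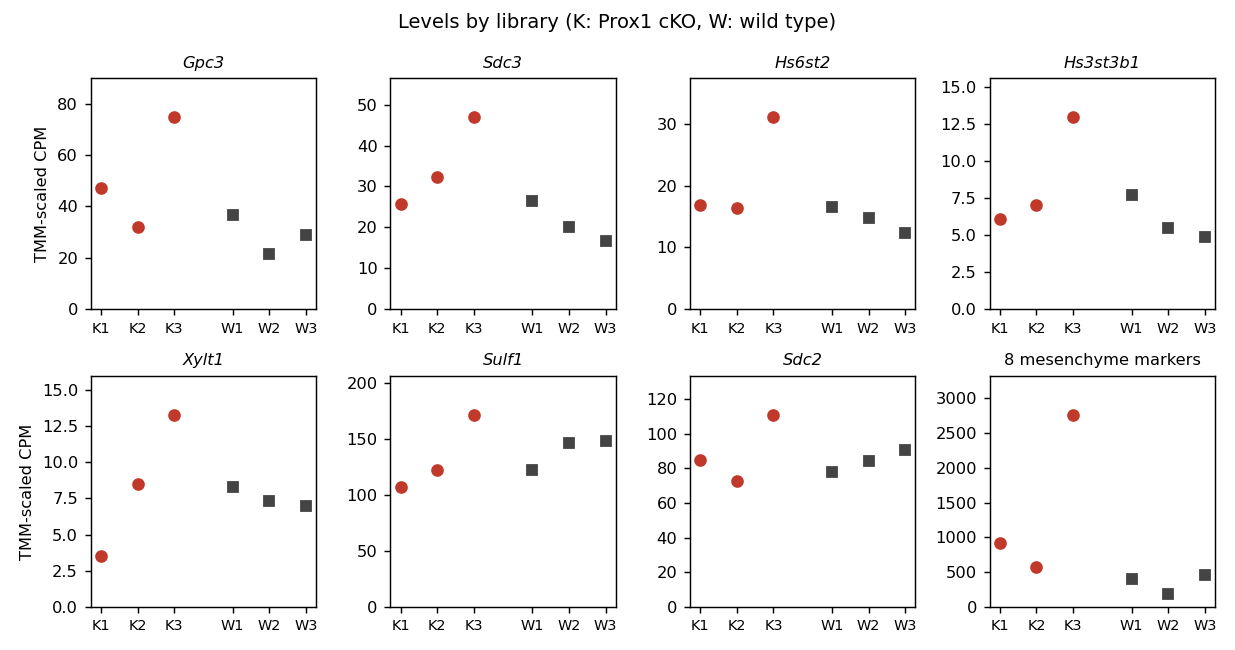
Level by library (y axis, TMM-scaled CPM, from 0) of 7 members and of the sum over 8 mesenchyme markers, with knockout libraries K1 to K3 on the left and wild type libraries W1 to W3 on the right. Knockout library 3 is the highest library in each panel, at 74.9 CPM for Gpc3 and 2765 CPM for the markers.

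The 13 risers varied in how much they rested on single libraries. All 6 fits that leave out 1 library kept the calls of 10 of the 15 called members, 8 that rose (Hpse, Ndst4, Hs3st5, Hs3st6, Gpc4, Gpc2, Agrn and Hs2st1) and both that fell. Ndst4 was tested only because its knockout libraries passed the filter on low counts, so its kept call adds no support. The calls of Ugdh, Gpc1, Gpc6, Hs3st3a1 and Hs3st4 were each lost in at least 1 such fit. Without wild type library 3, 8 members rose, where 952 of all genes did so.

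**Figure D5:**
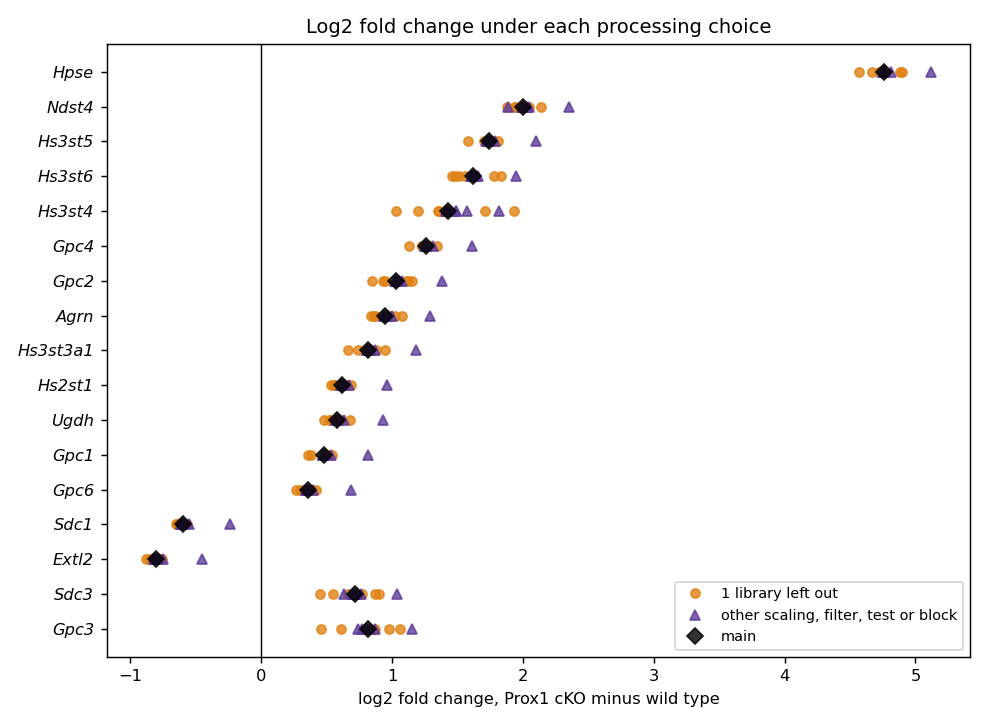
Log2 fold change (x axis, Prox1 cKO minus wild type) of the 15 called members and of Sdc3 and Gpc3 in the main test (diamonds), without 1 library (circles) and with other scaling, filter, test or replicate block (triangles). Each gene stays on its side of 0 under every choice drawn.

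Genes outside the set that supply the pathway or share its precursors included genes that rose and genes that fell. Of 48 tested genes on 5 lists, 8 rose (16.7%), 7 fell (14.6%) and 33 were not called, shares near the 15.9% and 16.8% of all genes tested. Without wild type library 2 or 3, 3 rose and 4 fell, without cKO library 3, 5 rose, and with unscaled totals 25 rose and 2 fell. Sulfate reaches the chain through the donor PAPS, and Papss2, which makes it, rose 4.08-fold (edgeR adjusted p 0.000738), with 13.2, 11.9 and 20.3 CPM in cKO lenses and 4.44, 3.26 and 3.28 CPM in wild type lenses. Its relative Papss1 rose 1.32-fold (edgeR adjusted p 0.0281) and was the more abundant per length, at 31.8 RPKM against 4.68 RPKM in cKO lenses. Bpnt1, whose enzyme clears the spent donor in the cytosol, fell 3.41-fold, by 1.77 in log2 units (edgeR adjusted p 6.27e-05). It had 25.9, 30.1 and 29.8 CPM in cKO lenses and 87.0, 102 and 103 CPM in wild type lenses. Its Golgi counterpart Impad1, named after its values were seen like the other genes outside the set that were not called, did not pass (log2 0.05, edgeR adjusted p 0.716). On the sugar side, Uxs1, which makes the xylose donor of the linker, fell 1.55-fold (edgeR adjusted p 0.00389), the UDP-glucose enzyme gene Ugp2 fell 1.36-fold (edgeR adjusted p 0.00955) and the nucleotide sugar transporter gene Slc35d2 fell 2.34-fold (edgeR adjusted p 0.015). Gfpt2 of the hexosamine pathway rose 1.64-fold (edgeR adjusted p 0.0155). Over this list of 14 tested supply genes, 3 rose (21.4%) and 4 fell (28.6%), beside 15.9% and 16.8% of all genes. The xylose kinase gene Fam20b, which phosphorylates the linker, fell 1.28-fold (edgeR adjusted p 0.0236), and the phosphatase gene Pxylp1 was not called (log2 0.46, edgeR adjusted p 0.105).

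The chondroitin and dermatan branch, which uses the same linker, had 3 risers and 0 fallers among 15 tested genes, a 20% share of risers beside 15.9% over all genes. They were the sulfotransferase genes Chst15 (2.24-fold, edgeR adjusted p 0.00712) and Chst11 (1.36-fold, 0.0287) and the epimerase gene Dsel (1.62-fold, 0.0278). Chst15 had 4.09, 6.18 and 5.04 CPM in cKO lenses and 2.12, 2.46 and 2.19 CPM in wild type lenses. Of 8 tested genes for lysosomal enzymes that take heparan sulfate apart, 1 rose (12.5%), 2 fell (25%) and 5 were not called. Over all genes tested, 15.9% rose and 16.8% fell. The acetyltransferase gene Hgsnat fell 1.59-fold (edgeR adjusted p 0.00441) and the glucuronidase gene Gusb fell 1.28-fold (edgeR adjusted p 0.0138). Of 9 further core proteins and partners, 1 rose (11.1%, beside 15.9% of all genes tested) and 8 were not called. The riser was Sdcbp, whose product syntenin binds syndecan tails (1.27-fold, edgeR adjusted p 0.0249).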

How the data were processed

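RNA of pooled lenses was sequenced as single-end reads of 51 bp from an unstranded poly(A) library, per the labels' protocols. The deposited tables give, per the file headers, raw counts together with CPM and RPKM values per feature. The deposited CPM equals the count over the library total within 1e-06, except in 26 features whose count and CPM disagreed, which were left out (at most 0.0636% of a library). The RPKM made by the authors divides that CPM by a gene length. The genome build GRCm38 and the program edgeR appear, per the submitters' processing notes, with no role stated. An aligner and a read counter were not given in the sources used here.

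Counts were tested in R 4.3.3 with the edgeR 4.0.16 quasi-likelihood test after filterByExpr (minimum count 10) and TMM scaling, knockout against wild type with no other term, with Benjamini-Hochberg adjustment over all 14271 genes and a threshold of 0.05. Intervals are 95% intervals from the SE and edgeR's total degrees of freedom. The procedure was tested on simulated data. Alternatives were DESeq2 1.42.0, limma-voom (limma 3.58.1), RLE and upper quartile factors, unscaled library totals, no filter, a filter of 1 CPM in 3 libraries, a replicate block, and leaving out each library. RPKM was summed per family, as deposited for shares and multiplied by the TMM scaling for sums. Named were Prox1, chosen marker genes, every member, and up to 4 called genes in each direction per further list, except for a result that is not reported here. Members and lists were chosen with earlier results of these data known. Gene positions and shared exons came from GENCODE release M21 (42 of 42 members matched) and promoters from RefSeq. Nothing says whether pools shared litters, so the p-values reflect spread among pools, which may be partly technical. The groups share replicate numbers, but nothing says that these mark pairs, so the main test had no term for them.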

Additional observations from a re-analysis of the deposited data

How the results depend on the processing

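Leaving out 1 library at a time gave 8 to 14 members that rose and 2 that fell, a median log2 fold change of the members of 0.20 to 0.40, 3 to 11 further pathway genes that rose and 4 to 9 that fell, 836 to 2400 of all genes that rose and 1431 to 2917 that fell, and a log2 fold change of Prox1 of -0.87 to -0.65. The lowest counts of members that rose came without wild type library 3 (8) or 2 (9), and those of the further pathway genes without either of them (3 each) or knockout library 3 (5). With unscaled library totals 26 members rose and 1 fell (median 0.65), 25 further pathway genes rose and 2 fell, 5423 of all genes rose and 945 fell, and Prox1 changed by -0.34 (edgeR adjusted p 0.0532). By construction that setting takes out no composition difference, and it moved the median of all genes by 0.35. It turned B3gat3 to 0.19, Ext1 to 0.22, Glce to 0.34 and Sulf1 to 0.30, and upper quartile factors turned Glce to 0.03. Xylt1 turned to -0.36 with limma-voom. Without 1 library the log2 fold changes ran from -0.38 to 0.53 for Xylt1, -0.03 to 0.09 for B3galt6, -0.10 to 0.06 for Glce, -0.05 to 0.21 for Hs3st1, -0.28 to 0.08 for Sulf1, -0.09 to 0.22 for Sdc2 and -0.03 to 0.11 for Sdc4, none of them called. Every called member kept its direction in all 14 alternatives, and 9 of 15 kept their call in all of them. Libraries with the same replicate number had correlations of deviations of -0.0276, 0.254 and 0.111, and those with different numbers from -0.224 to 0.0878. With 3 libraries per group these values cannot decide whether the numbers marked pairs. With the replicate block 12 members rose and 2 fell, 2020 of all genes rose and 2156 fell, Xylt1 turned to -0.03, Gpc3 passed (0.0361), and Gpc6 (0.0688) and Hs3st4 (0.0844) did not. The cause of these changes was not tested. A count of 3, the level that a count of 0 allows, corresponds to 0.0882 to 0.303 CPM and covers counting error only, so Hpse2, Hs3st2, Hs6st3 and Gpc5 could not be compared at this depth.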
